A study of Mus musculus with 11 samples.

Results

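Genes that mark the mesothelium were examined in the gonadal white adipose tissue (WAT) of obese mice. The members are 8 gene symbols chosen by name as known mesothelial markers, and 5 of them (Upk3b, Upk1b, Lrrn4, Wt1 and Krt19) have a row among the 12787 genes of the deposited table. The other 3 symbols, Msln, Krt8 and Krt18, have no row in the table used and are not analysed here, so the values below describe 5 of 8 members and not the whole set.

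The mesothelium is the single layer of flattened cells that lines the body cavities and covers the organs inside them, gonadal fat included. Its cells arise from mesoderm but carry keratins and other epithelial proteins, and they express WT1, a zinc-finger transcription factor that also controls development of the gonad and kidney. In visceral fat the mesothelium forms the outer surface of the depot, while the adipocytes, progenitor cells, vessels and macrophages lie beneath it.

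The mice were male C57BL/6J animals, all on a 60% high fat diet (HFD) for 20 weeks. The control group (HFD, n = 5) received vehicle, and the treated group (HFD + IMC, n = 6) received the HFD with 0.06% w/w iodomethylcholine (IMC), a small molecule that inhibits the gut bacterial enzyme that makes trimethylamine from choline. The comparison asked how blocking this bacterial enzyme altered gene expression in the fat of the host. A further control library was dropped by the submitters for quality, there was no lean or low fat group, and the age of the sequenced mice is not stated in the sources used here. Another 20-week feeding of male mice on these diets began at 6 weeks of age, and whether it held the same animals is not stated. Mice are called by the number in their library label, 2 to 6 for HFD and 7 to 12 for HFD + IMC, and each gave 1 library. The libraries held 22320022 to 25155366 reads on the listed genes, and every value below is a level in log2 CPM (reads of a gene divided by the library's size after scaling, as a log2 value) unless another scale is named.

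The labelled tissue carried its defining markers. All 12 listed adipocyte genes had a row, with a summed level of 18935 to 23567 CPM in HFD and 28420 to 33158 CPM in HFD + IMC. Of 18 genes of the epididymis, the organ that touches the gonadal fat pad, none had a row, and of 10 germ cell genes only Sycp3, a protein of meiotic chromosomes, did. Its log2 fold change with IMC was 0.54 (limma adjusted p = 0.0310), and 0.45 without mice 10 and 12 of the treated group (limma adjusted p = 0.104). A gene without a row, which Msln, Krt8 and Krt18 also lack, is not shown to be absent from the tissue.

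Mice 10 and 12, both given IMC, stood apart from the other 9 in most members. They were picked out after the values were seen, so the comparisons between the groups are given with and without them. Their libraries were of ordinary depth, at 25155366 and 24420434 reads, the former the deepest of the 11.

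The promoters of Upk3b and Lrrn4 are shown because these are the only members with an entry in the promoter table of RefSeq (build GRCm38.p6). The stretches are the 250 bases before the RefSeq start of transcription, read 5′ to 3′ on the strand of the gene. Capitals mark the letters CATTCC on either strand, the core motif bound by TEAD factors, the DNA-binding partners of YAP and TAZ. Upk3b lies at chr5:136038246-136038495 on the plus strand and Lrrn4 at chr2:132880863-132881112 on the minus strand. GENCODE places the start of Lrrn4 at 132880891, inside its stretch, so the sources differ on that start.
Upk3b: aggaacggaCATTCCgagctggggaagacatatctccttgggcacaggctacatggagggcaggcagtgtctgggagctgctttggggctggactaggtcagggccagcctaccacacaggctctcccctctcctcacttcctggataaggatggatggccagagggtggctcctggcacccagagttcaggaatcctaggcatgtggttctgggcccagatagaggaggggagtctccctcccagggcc
Lrrn4: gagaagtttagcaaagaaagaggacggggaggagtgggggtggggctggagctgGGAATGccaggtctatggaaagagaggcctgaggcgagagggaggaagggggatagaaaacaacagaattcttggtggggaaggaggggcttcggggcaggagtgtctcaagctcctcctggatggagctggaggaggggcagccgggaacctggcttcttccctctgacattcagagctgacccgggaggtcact
The capitals began 241 bases before the RefSeq start of Upk3b and 196 bases before that of Lrrn4, and 12.6% of 32851 promoters of this length hold the same letters. Other motifs were searched on both strands as the exact letters given below, and neither stretch held those letters. Other spellings of the same motifs were not searched. TATAAA, the core promoter box, was present in 12.4% of promoters. The Sp1 box, spelled GGGCGG, was present in 32.7%. For the factors of the Gata6 family the letters were AGATAA (9.99% of promoters). For WT1 they were GCGTGGGAG (0.405% of promoters). The GC content was 60.8% for Upk3b and 59.2% for Lrrn4. A match of letters is a description and does not show a bound site.

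Of the 5 members, Wt1 was lower in HFD + IMC and the other 4 did not pass the test. The members called were therefore 1 of 5, beside 40.9% of all 12787 genes called in either direction at an adjusted p of 0.05 by limma. Of all genes 21.0% were called lower (2680 genes), and 2556 genes were called higher. The 1 call of 5 was toward lower, which is near the share of all genes called lower, and it rests on a single gene. So few members give no result about the set. Single-gene estimates for all 5 were negative. In none of the 5 were the groups fully separate, and 23.1% of all genes had groups that did not overlap. A lower level in a whole-tissue sample can stand, among other things, for fewer mesothelial cells or for less RNA per cell. CPM is a share of the library, so it also depends on the RNA of other cells. These readings cannot be told apart here.

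Wt1 (chromosome 2, 105126529 to 105173616, plus strand, GRCm38) encodes the transcription factor named above. Its levels were 4.35, 4.82, 4.94, 4.45 and 4.51 in HFD mice 2 to 6, and 4.42, 4.20, 4.18, 3.58, 4.25 and 3.59 in HFD + IMC mice 7 to 12. All 6 IMC-treated mice lay below the HFD mean and 5 lay below every HFD mouse, with mouse 7 inside the HFD range. The mean was 4.61 ± 0.25 (SD, n = 5) in HFD and 4.04 ± 0.36 (n = 6) in HFD + IMC. The log2 fold change was -0.57 (SE 0.16, 95% interval -0.93 to -0.22, limma adjusted p = 0.0141), a level at 67.2% of the HFD mean, and the two-sided exact permutation test over mice gave p = 0.00866. Without mice 10 and 12 the log2 fold change of Wt1 was -0.35 (interval -0.60 to -0.092, limma adjusted p = 0.0381), so the call was kept with a smaller difference. In that fit of 9 mice 34.7% of all genes were called, 17.3% lower.

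Upk3b (chromosome 5, 136038496 to 136046487, plus strand) encodes uroplakin 3B, a membrane protein of the family that stiffens the surface of the bladder lining and that mesothelial cells also make. It was the most abundant member, with levels of 6.74, 6.75, 7.11, 6.77 and 6.80 in HFD mice 2 to 6. In HFD + IMC mice 7 to 12 the levels of Upk3b were 6.95, 6.85, 6.82, 5.57, 6.81 and 5.51. Mice 10 and 12 were below every HFD mouse, and the other 4 IMC-treated mice were inside the HFD range. The log2 fold change was -0.42 (SE 0.26, interval -0.98 to 0.15, limma adjusted p = 0.226). Without mice 10 and 12 it was 0.025 (interval -0.14 to 0.19, limma adjusted p = 0.822), with the sign turned.

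Lrrn4 (chromosome 2, 132868305 to 132880891, minus strand) encodes a membrane protein with leucine-rich repeats. The levels were 5.50, 5.49, 6.02, 5.60 and 5.40 in HFD mice 2 to 6, and 5.70, 5.63, 5.48, 4.44, 5.51 and 4.19 in HFD + IMC mice 7 to 12. The pattern was that of Upk3b, with mice 10 and 12 below every HFD mouse and the other 4 inside the HFD range. The log2 fold change of Lrrn4 was -0.45 (SE 0.26, interval -1.01 to 0.12, limma adjusted p = 0.193), and without mice 10 and 12 it was -0.027 (interval -0.27 to 0.21, limma adjusted p = 0.874).

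Upk1b (chromosome 16, 38773184 to 38800328, minus strand) encodes uroplakin 1B, a tetraspanin that partners with other uroplakins in the membrane. The levels were 4.77, 4.62, 5.17, 4.95 and 4.84 in HFD mice 2 to 6, and 4.98, 4.98, 4.63, 3.50, 4.56 and 3.70 in HFD + IMC mice 7 to 12. Mice 10, 11 and 12 were below every HFD mouse, mouse 11 by a narrow margin. The log2 fold change of Upk1b was -0.48 (SE 0.25, interval -1.02 to 0.064, limma adjusted p = 0.147), and without mice 10 and 12 it was -0.083 (interval -0.35 to 0.18, limma adjusted p = 0.630).

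Krt19 (chromosome 11, 100140810 to 100148665, minus strand) encodes keratin 19, an intermediate filament protein of simple epithelia and mesothelium. The levels were 4.62, 4.94, 5.31, 4.90 and 4.35 in HFD mice 2 to 6, and 4.57, 5.26, 4.55, 3.48, 4.74 and 4.77 in HFD + IMC mice 7 to 12. Only mouse 10 was below every HFD mouse, and mouse 12 sat close to the HFD mean, unlike in the other members. The log2 fold change of Krt19 was -0.26 (SE 0.25, interval -0.81 to 0.29, limma adjusted p = 0.436). Without mouse 10 alone it was -0.044, and without mice 10 and 12 it was -0.043 (interval -0.45 to 0.36, limma adjusted p = 0.880).

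**Figure D1:**
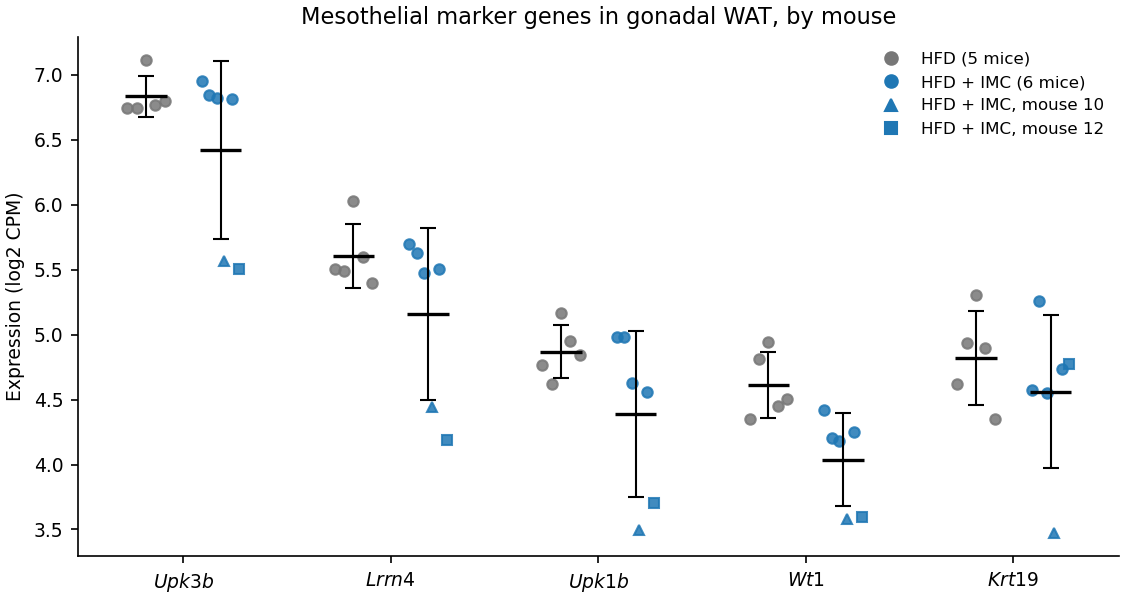
Levels of the 5 listed members (log2 CPM, vertical axis) in each mouse of the HFD and HFD + IMC groups, 1 point for each mouse, with bars for the group mean and SD. Mice 10 and 12 lie lowest for Upk3b, Lrrn4, Upk1b and Wt1, while for Krt19 mouse 12 (4.77) lies among the controls.

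**Figure D2:**
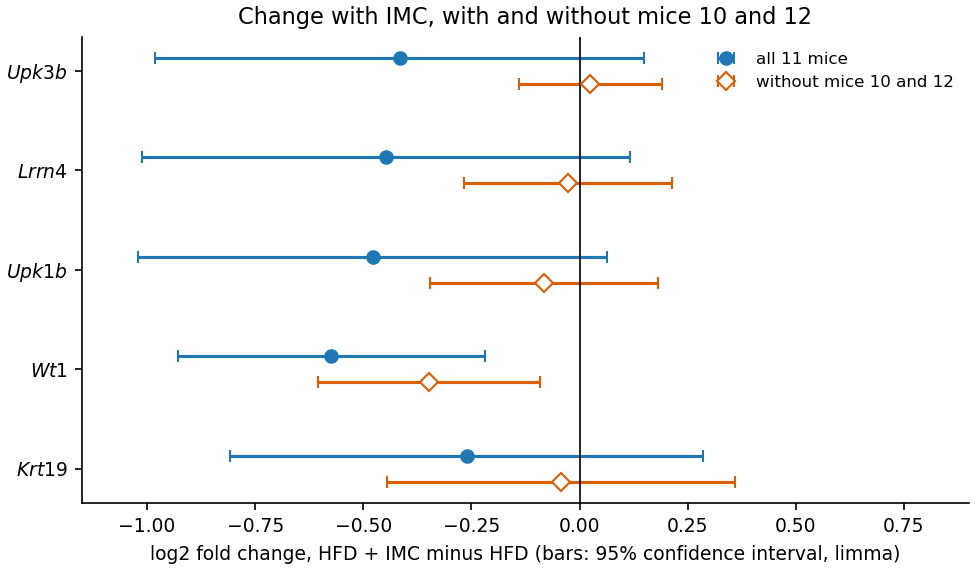
Log2 fold change of each member (HFD + IMC minus HFD, horizontal axis) with the 95% confidence interval from limma, for all 11 mice (filled) and without mice 10 and 12 (open). The interval of Wt1 stays below 0 in both fits (-0.57 and -0.35), and those of the other 4 members span 0 in both.

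The intervals of the 4 members that did not pass had lower ends between -1.02 and -0.81 on the log2 scale, and each held the estimate of Wt1. The test of the difference itself compared the members within each mouse, a measure that does not depend on how the libraries were scaled. Among the 10 pairs of members, none differed in its change (two-sided exact permutation, p from 0.247 to 0.771, Benjamini-Hochberg adjusted p = 0.771 for each). The widest was Wt1 minus Krt19, at -0.31 on the log2 scale. When mice 10 and 12 were left out, Upk3b minus Wt1 went from 0.16 to 0.37, then the widest, and Wt1 minus Lrrn4 from -0.13 to -0.32. Again no pair passed (exact permutation, lowest adjusted p = 0.119). The change of Wt1 was thus not shown to differ from that of the other members.

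On the scale of log2 CPM per kilobase of exon, which allows genes to be set against each other, Upk3b had the highest mean level, at 5.01 in HFD and 4.60 in HFD + IMC. Krt19 (3.93 and 3.67), Upk1b (3.81 and 3.33) and Lrrn4 (3.71 and 3.26) followed, and neighbours among these 3 were closer than the SD between mice. Wt1 was the lowest, at 1.98 and 1.41. None of the 5 genes overlaps another annotated gene (GENCODE, GRCm38), and each member was covered by 276 to 3292 reads in every mouse.

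With all mice, the members differed more between mice within the IMC group than within the HFD group. The SD of Upk3b was 0.16 in HFD and 0.68 in HFD + IMC, a ratio of 4.38. The ratio was 3.12 for Upk1b, 2.69 for Lrrn4, 1.64 for Krt19 and 1.42 for Wt1, beside a median of 1.05 and a 95th percentile of 2.60 over all genes. This direction rested on mice 10 and 12. Over the other 4 treated mice the SD was smaller than in HFD for 4 of the 5 members, with ratios of 0.41 for Upk3b, 0.42 for Lrrn4, 0.43 for Wt1 and 0.92 for Krt19, and 1.10 for Upk1b, beside a median of 0.94 over all genes. The summed level of the 5 members was 225 to 310 CPM in HFD mice, 224 to 253 CPM in the other 4 IMC-treated mice, 104 CPM in mouse 10 and 116 CPM in mouse 12.

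These 2 mice held the 2 lowest of the 11 levels in 4 of the 5 members, beside 2.54% of all genes (325 genes). The same held for 8 of 16 further mesothelial genes (Bnc1, Gpm6a, Nkain4, Cldn15, Pkhd1l1, Gata6, Igfbp6 and Efemp1), for the keratin Krt7 and for 3 of 12 progenitor genes (Dpp4, Dcn and Fap). It held for none of the 12 adipocyte, 12 macrophage, 10 endothelial or 4 skeletal muscle genes with a row. Because the mice were picked from these levels, the counts are a description.

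Beside the low members, the pair shared a low summed progenitor level. This was not common to the list, since only 3 of its 12 genes had their 2 lowest levels in these mice. Ly6a in mouse 12, at 7.72, was the highest of the treated mice. Their progenitor sums were 3858 and 4304 CPM, the 2 lowest of the 11 mice, against 4530 to 4855 CPM in the other 4 treated mice and 4810 to 5882 CPM in HFD. In macrophage and adipocyte levels they differed. Mouse 10 had the highest summed macrophage level of the treated mice (11934 CPM) and mouse 12 the lowest (7441 CPM), against 13975 to 18971 CPM in HFD mice. Their summed adipocyte levels were 29046 and 33158 CPM, at the lower and the upper end of the treated range. No listed gene was at 0 in any mouse. The part of tissue make-up in the low member levels of these mice was not tested.

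**Figure D3:**
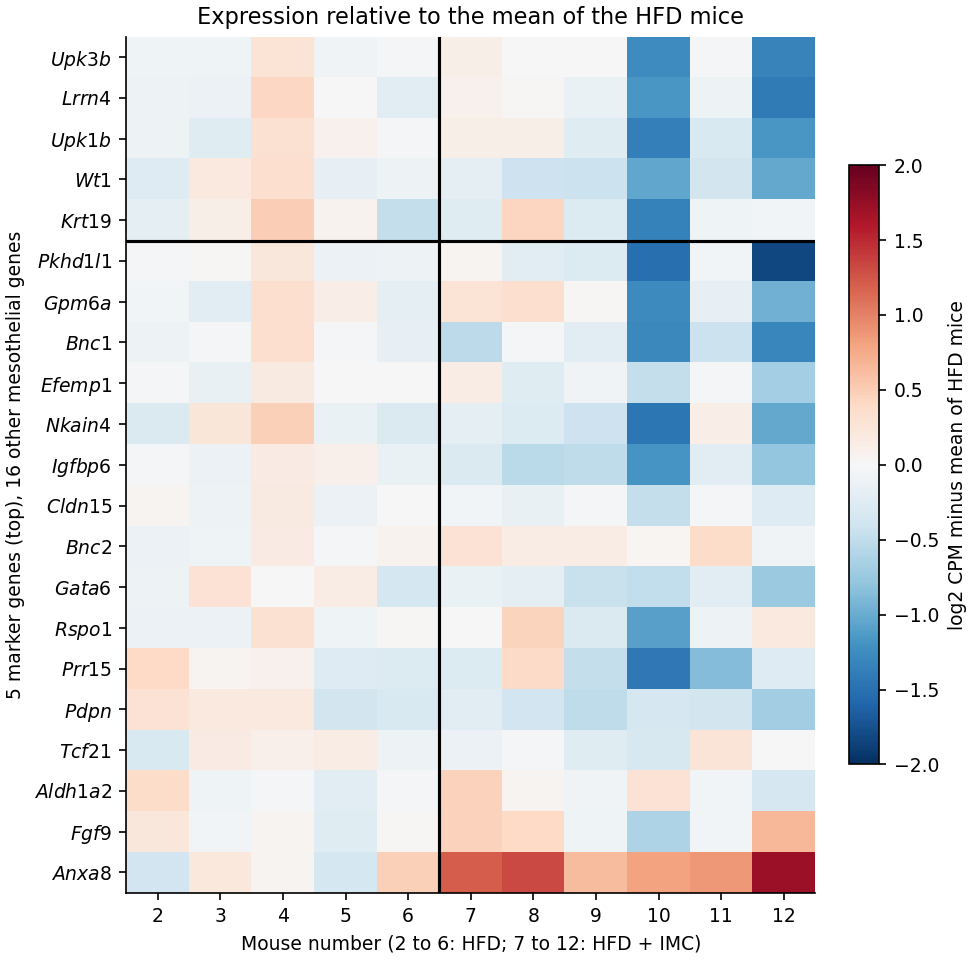
Level of each member and each further mesothelial gene (rows) in each mouse (columns), as the difference in log2 CPM from the mean of the HFD mice. The columns of mice 10 and 12 are the lowest for many rows, with exceptions such as Krt19 and Rspo1, where mouse 12 (4.77 and 5.23) was not low.

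With all 11 mice the levels of 4 of the 5 members fell into 2 separate clusters, mice 10 and 12 and the rest. No pooled correlation between members is therefore given. For Krt19 only mouse 10 stood apart, and its pairs are given over the same 9 mice. Over the other 9 mice, with the group means removed, Pearson's r was 0.92 for Upk3b and Lrrn4 (exact permutation within groups, p = 0.0302, adjusted p = 0.0755), with Spearman's rho of 0.72 (exact permutation p = 0.0747, adjusted p = 0.249). For Upk1b it was 0.79 with Lrrn4 (rho 0.77) and 0.75 with Upk3b (rho 0.73). Of the 10 pairs, 4 had an unadjusted p under 0.05 by r and none passed after adjustment (exact permutation, lowest adjusted p = 0.0660 by r and 0.0799 by rho). When the 2 mice farthest from the median were left out again, r of Upk3b and Lrrn4 over 7 mice was -0.021, so that relation rested on those mice. Pairs with Krt19 had r of 0.46 to 0.70 over the 9 mice, with adjusted p of 0.119 or more (exact permutation).

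**Figure D4:**
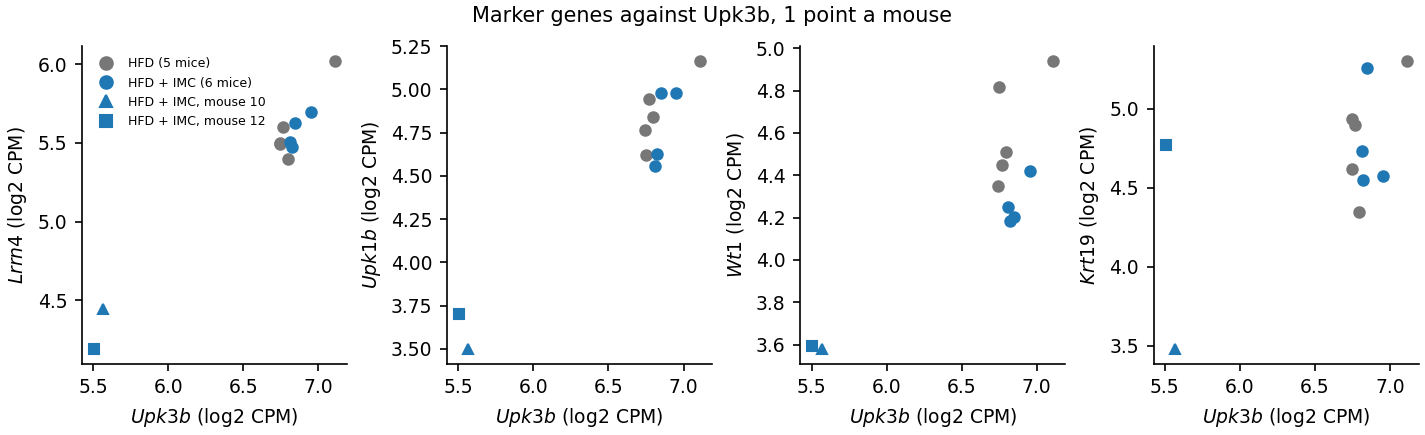
Level of each other member against that of Upk3b (log2 CPM on both axes), 1 point for each mouse, coloured by group. Mice 10 and 12 form a separate cluster at the lower left of the panels for Lrrn4, Upk1b and Wt1, and for Krt19 mouse 12 leaves that cluster.

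The genes most like the members were ranked by Pearson's r with the mean of Upk3b, Lrrn4, Upk1b and Wt1, the members that are not keratins, over all 11 mice with group means removed. The 10 highest outside the members were Tmem151a (0.98), Pkhd1l1 (0.97), Chst4 (0.96), Gpm6a (0.96), AI661453 (0.95), Krt7 (0.93), Bnc1 (0.93), Dpp4 (0.93), Colec12 (0.91) and Ppm1l (0.91). All 10 had their 2 lowest levels in mice 10 and 12, and that pair weighs heavily in the coefficients and in the choice of these genes. Over the other 9 mice the same coefficient was 0.93 for Tmem151a, 0.88 for Chst4, 0.86 for Dpp4, 0.82 for Krt7, 0.82 for AI661453 and 0.80 for Gpm6a. It was lower for Pkhd1l1 (0.75), Bnc1 (0.55), Ppm1l (0.47) and Colec12 (0.42). Over all other genes the 5th and 95th percentiles were -0.46 and 0.53 with 11 mice and -0.50 and 0.58 with 9.

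Several of these genes are known. GPM6A is a membrane glycoprotein, PKHD1L1 a large membrane protein related to fibrocystin, CHST4 a sulphotransferase, keratin 7 a filament protein of simple epithelia and BNC1 a zinc-finger protein of basal and mesothelial cells. DPP4 is a surface peptidase that marks early adipose progenitors and the interstitial layer around the fat lobules. In Tmem151a the levels of mice 10 and 12 were 2.37 and 2.33, against 3.08 to 4.06 in the other 9. Of the 10 genes, 4 were called lower in HFD + IMC (Tmem151a, AI661453, Bnc1 and Colec12), beside 21.0% of all genes, and none higher. The ranking picked genes that were low in 2 treated mice, which lowers the treated mean. The count is thus a description and not a fair comparison with all genes. In the fit without mice 10 and 12 only Colec12 (-0.14, limma adjusted p = 0.0398) was still called, beside 17.3% of all genes.

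**Figure D5:**
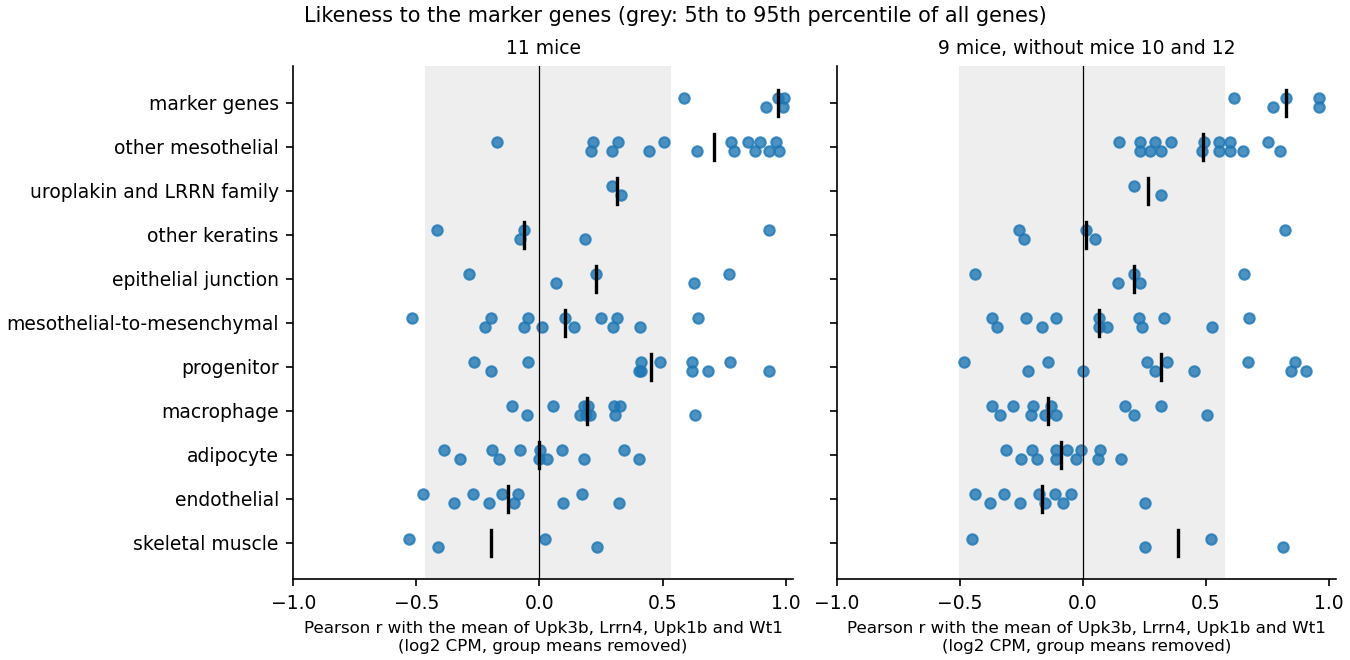
Pearson's r of each gene with the mean of Upk3b, Lrrn4, Upk1b and Wt1 (horizontal axis, group means removed), by gene list, over 11 mice (left) and the 9 mice without mice 10 and 12 (right), with bars for list medians and a grey band for the 5th to 95th percentile of all genes. The further mesothelial genes had a median of 0.71 with 11 mice and 0.49 with 9, and the macrophage genes 0.19 and -0.14. The 4 averaged members are part of their own mean.

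Of 20 further mesothelial genes, 16 had a row. With IMC, 4 of the 16 were called lower, 1 higher, and 11 did not pass. Beside these counts, 21.0% of all genes were called lower and 40.9% in either direction. The median log2 fold change of the 16 was -0.26, beside -0.026 for all genes, and -0.058 without mice 10 and 12. Igfbp6, a secreted binder of insulin-like growth factors, fell by 0.59 on the log2 scale (7.56 ± 0.13 in HFD and 6.97 ± 0.35 in HFD + IMC, limma adjusted p = 0.00518), with no overlap between the groups. Pdpn, the surface glycoprotein podoplanin, fell by 0.42 (limma adjusted p = 0.0160). Bnc1 fell by 0.63 (limma adjusted p = 0.0345) and Gata6, a transcription factor of mesoderm and endoderm, fell by 0.37 (limma adjusted p = 0.0350). Without mice 10 and 12, Igfbp6 (-0.39) and Pdpn (-0.37) were still called lower, beside 17.3% of all genes. Over those 9 mice r with the mean of the 4 averaged members was 0.49 for Igfbp6 and 0.32 for Pdpn. Both were under the 95th percentile of other genes (0.58). Bnc1 (-0.30, limma adjusted p = 0.0781) and Gata6 (-0.25, limma adjusted p = 0.138) no longer passed. The count called lower was also 2 when HFD mouse 3, 4 or 5, or IMC mouse 10 or 12, was left out alone.

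Anxa8, which encodes a calcium-dependent phospholipid-binding protein, moved the other way. Its levels were 3.27, 3.86, 3.70, 3.29 and 4.13 in HFD mice 2 to 6, and 4.86, 4.96, 4.27, 4.46, 4.52 and 5.35 in HFD + IMC mice 7 to 12. The groups did not overlap, and mouse 12, among the lowest for most members, had the highest level of all. The log2 fold change of Anxa8 was 1.09 (SE 0.20, limma adjusted p = 0.000918), and 1.01 without mice 10 and 12 (limma adjusted p = 0.00197). Of all genes, 12.5% had groups apart with IMC higher.

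Relatives of the members were few in the table. Of 8 further uroplakin and LRRN family symbols, Lrrn2 and Lrrn4cl had a row. Both were called lower in HFD + IMC, beside 21.0% of all genes. Lrrn4cl fell by 0.45 on the log2 scale (limma adjusted p = 0.0105) and Lrrn2 fell by 0.36 (limma adjusted p = 0.0139). Without mice 10 and 12 Lrrn4cl was still called (-0.39, limma adjusted p = 0.0286) and Lrrn2 no longer passed (-0.33, limma adjusted p = 0.0507). For both, mice 10 and 12 were not the 2 lowest.

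Of 16 further keratin symbols, 5 had a row. Krt79 (0.64), Krt222 (0.68) and Krt80 (0.50) were called higher in log2 fold change with IMC (limma adjusted p = 0.0163, 0.0321 and 0.0322), at HFD levels of 4.23, 0.94 and 1.76. Krt7 (-0.41, limma adjusted p = 0.218) and Krt10 (-0.17, limma adjusted p = 0.406) did not pass. Without mice 10 and 12, Krt222 no longer passed (0.64, limma adjusted p = 0.0616). Krt7 followed the members, with 1.88 in mouse 10 and 2.12 in mouse 12 against 2.67 to 3.53 in the other 9.

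Of 18 genes of epithelial junctions, 5 had a row, all of the plakin, plakophilin and plakoglobin group. Pkp2, the desmosomal plaque protein plakophilin 2, had a log2 fold change of 0.55 (limma adjusted p = 8.92e-05) with no overlap between the groups. Plec, the cytoskeletal linker plectin, fell by 0.36 (limma adjusted p = 0.0108). Jup (-0.031), Ppl (-0.45) and Evpl (-0.60) did not pass (limma adjusted p = 0.735, 0.0973 and 0.151). The calls for Pkp2 and Plec held without mice 10 and 12.

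Mesothelial cells can take on a mesenchymal form, and 13 of 14 genes linked to that change had a row. Of these, 3 were called lower and 1 higher, beside 21.0% of all genes called lower and 40.9% called in either direction. S100a4, a calcium-binding protein of fibroblasts and macrophages, fell by 0.70 on the log2 scale (limma adjusted p = 0.000893), Col1a1, a chain of type I collagen, fell by 0.37 (limma adjusted p = 0.00864) and Vim, the filament protein vimentin, fell by 0.34 (limma adjusted p = 0.0137). Acta2, smooth muscle actin, had a log2 fold change of 0.71 (limma adjusted p = 0.00122). The same counts held without mice 10 and 12. The factors Snai1, Snai2, Twist1, Twist2, Zeb1 and Zeb2 had log2 fold changes from -0.37 to 0.14, and none passed.

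Markers of other cells moved between the groups beside the members. With IMC, 11 of 12 adipocyte genes were called higher and 10 of 12 macrophage genes lower, while 7 of 12 progenitor genes were lower and none higher. The shares over all genes were 21.0% called lower and 40.9% called in either direction. In the adipocyte list, Aqp7, the glycerol channel of the adipocyte, had a log2 fold change of 0.91 (limma adjusted p = 3.22e-05), Cidec, a lipid droplet protein, of 0.87 and Acsl1, which activates fatty acids, of 0.91. The macrophage gene Cd9 fell by 0.70 (limma adjusted p = 3.50e-05), Trem2, a lipid receptor, fell by 0.79 and Cd68 fell by 0.61. The progenitor gene Icam1 fell by 0.51 (limma adjusted p = 5.30e-05), Ly6a fell by 0.48 and Thy1 fell by 0.91. Of 10 endothelial genes, Cdh5 (0.41) and Egfl7 (0.34) were called higher, and Kdr (0.27, limma adjusted p = 0.0742) did not pass. Of 4 skeletal muscle genes with a row, Acta1 (1.23) and Myh2 (3.02) were called higher, and Tnni2 (-0.27) and Actn3 (-0.12) did not pass. Without mice 10 and 12 the adipocyte, macrophage, endothelial and muscle counts were unchanged, while 5 progenitor genes were lower and 1, Col6a1, was higher. The part of these cells in the change of Wt1 was not tested.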

How the data were processed

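RNA from gonadal WAT of 11 mice, 5 HFD and 6 HFD + IMC, was sequenced from directional mRNA libraries, and groups were taken from the sample labels. The authors trimmed reads (Trim Galore), aligned them to mm10 with STAR, counted reads per gene, removed low counts, scaled by the upper quartile and deposited log2 CPM values for 12787 genes (edgeR). The strand setting of the count is not given in the sources used here. Genes that the authors removed are outside the table. The 5 columns of the authors' own comparison (fold change, mean level, statistic, p and FDR) were not used.

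The members and gene lists were chosen with earlier results of these data known. Groups were compared with limma 3.58.1 (trend, R 4.3.3) on the deposited log2 CPM, with Benjamini-Hochberg adjustment over all 12787 genes and an adjusted p of 0.05 as the threshold. Single genes were also compared by two-sided exact permutation over the 462 splits of the mice. The p-values measure the spread between these mice, each taken as a separate unit. The paper describes group housing, but nothing in the labels names litters or cages. Sharing of a cage could therefore not be taken into account. Within a mouse, the CPM values moved in equal steps, which gave whole reads for 100% of values after a constant averaging 0.25 reads, and these reads were used for depth and alternative scalings. Counting error only is covered by depth.

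Of 3 planned within-mouse pairs of members each needed a symbol without a row, so all 10 pairs of listed members were tested instead. Correlations between members were planned over 11 mice and are given over 9, because 2 mice formed a separate cluster in 4 of the 5 members. Both choices, and the fits without mice 10 and 12, were made after the values were seen. Genes named are the members, the 3 with the smallest p of each list, every listed gene of lists with 5 or fewer, and the 10 most like the members. Other genes (those in which mice 10 and 12 were lowest, called genes of the mesothelial and mesenchymal lists, and the mesenchymal factors) were named after their values were seen. Alternatives were limma voom on recovered reads, total-count and median-of-ratios scaling, an added constant of 2 reads, a filter of 1 CPM in every mouse, no trend, and leaving out each mouse. The limma fit and read recovery were tested on simulated data. Promoter letters came from RefSeq, and exon lengths and positions from GENCODE, both on the build mm10 equals (GRCm38). Tables and figures used Python 3.11.15, numpy, pandas, scipy 1.17.1 and matplotlib.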

Additional observations from a re-analysis of the deposited data

Results flagged for a closer look

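The level of Upk3b in HFD mouse 4 was 7.11 log2 CPM, above the 6.74 to 6.80 of the other 4 HFD mice. The gap to the nearest mouse was 0.859 of the group's range, past the limit of 0.710 that Dixon's test sets for 5 samples. It was the only one of 10 groups (5 members in 2 groups of mice) that stood out in this way, and chance gives about 1 in 20 for each group. A gap to the nearest mouse cannot flag 2 low mice that lie close together. Mice 10 and 12 did so, at 5.57 and 5.51 for Upk3b. Mouse 4 also had the highest HFD level of Lrrn4, Upk1b, Wt1 and Krt19.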

How the results depend on the processing

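No paired analysis was possible because the mice carry separate numbers and nothing ties a control mouse to a treated one. Wt1 was the 1 member called lower, and none was called higher, under voom, total-count scaling, median-of-ratios scaling, the added constant of 2 reads, the 1 CPM filter, no trend and each left-out mouse. Its log2 fold change was -0.61 to -0.57 over those 6 settings (limma adjusted p = 0.0103 to 0.0215) and -0.65 to -0.48 with a mouse left out (limma adjusted p = 0.00905 to 0.0415). The other 4 members never passed. Upk3b was -0.52 to -0.23 with a mouse left out, and 0.025, on the other side of 0, without mice 10 and 12 (limma adjusted p = 0.822, exact permutation p = 0.817). Lrrn4 was -0.56 to -0.25, Upk1b -0.60 to -0.30 and Krt19 -0.40 to -0.044, with the smallest changes when mouse 10 or mouse 12 was left out. Within-mouse differences turned sign without reaching the threshold: Upk1b minus Wt1 (-0.016 to 0.18 with a mouse left out), Upk3b minus Lrrn4 (-0.0040 to 0.074), Upk1b minus Lrrn4 (-0.087 to 0.013), Upk3b minus Krt19 (-0.26 to 0.070, and 0.068 without mice 10 and 12) and Krt19 minus Lrrn4 (-0.050 to 0.29, and -0.016 without both). Further mesothelial genes called lower were 4 in all 6 settings and 2 to 5 with a mouse left out, with 2 when HFD mouse 3, 4 or 5 or IMC mouse 10 or 12 was left out, and 2 without mice 10 and 12. Progenitor genes called higher were 0 to 1 with a mouse left out, and 1 without mice 10 and 12. Genes called lower over the whole table were 2532 to 3261 over the 6 settings and genes called higher 2203 to 2646, and no scaling moved the median change of all genes below -0.058. Fewer mice were compared in the fits that left mice out, and the cause of these changes was not tested. Depth did not limit the members, at 276 reads or more in each mouse.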
